A study of Mus musculus with 10 samples.

Results

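The 10 genes described here bind, store or move iron: Lcn2, Ltf, Trf, Tfrc, Fth1, Ftl1, Slc11a1, Slc40a1, Cp and Hamp. They were chosen by symbol, and all 10 were found among the 35275 Ensembl genes of the deposited FPKM table (reads counted for a gene, divided by its length and by all reads counted in its library). The mice were of the inbred strain BALB/c and in lactation. In the LPS group, glands of the 4th pair received 50 µL of lipopolysaccharide (LPS, the endotoxin of E. coli 055:B5) at 0.4 mg/mL through the teat on day 3 of lactation. In the PBS group, glands received sterile phosphate-buffered saline by the same route. Glands were collected 12 h later, and the RNA of 5 glands of each group was sequenced.

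Per the labels, LPS and saline went to opposite sides of an animal, so the PBS glands are not glands of untreated mice. No gland without an injection was analysed here. The labels give n = 9 and do not tie the 10 libraries to animals, so a p-value here is set against the variation among single glands only.

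Mammals keep free iron scarce, and most invading bacteria must take it from the host. Transferrin carries iron in plasma and is taken up through the transferrin receptor, ferritin stores iron inside cells, and ferroportin lets it out, helped by the ferroxidase ceruloplasmin and held back by the liver hormone hepcidin. Lactoferrin, a milk and neutrophil protein related to transferrin, and lipocalin 2, which captures bacterial siderophores, keep iron from microbes. Several of these mRNAs carry an iron-responsive element, a hairpin with a CAGTGN loop to which the iron regulatory proteins bind when cells are short of iron. In the 5′ UTR this binding blocks translation, and in the 3′ UTR it protects the transcript from decay.

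The elements are shown because they are the sequence that splits these genes into groups. A search of the GENCODE M21 transcripts (build GRCm38, the same as mm10) asked for the loop CAGTGN on the transcript strand, an upper stem of 5 pairs after an unpaired C, and at least 3 pairs in the 5 bases of the lower stem. It found elements in 4 of the 10 genes, in the 5′ UTR of Fth1, Ftl1 and Slc40a1 and at 4 places in the 3′ UTR of Tfrc. Of all 21877 protein-coding genes, 0.0457% had a match in the 5′ UTR and 0.165% in the 3′ UTR. Each is printed 5′ to 3′ as DNA letters of the transcript strand, with the loop in capitals.
Fth1 5′ UTR, chr19:9982733-9982759, plus strand: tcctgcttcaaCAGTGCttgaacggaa
Ftl1 5′ UTR, chr7:45459780-45459806, minus strand: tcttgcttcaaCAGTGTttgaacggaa
Slc40a1 5′ UTR, chr1:45925466-45925492, minus strand: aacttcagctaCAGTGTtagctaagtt
Tfrc 3′ UTR, chr16:32631220-32631246, plus strand: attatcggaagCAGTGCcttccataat
Tfrc 3′ UTR, chr16:32631599-32631625, plus strand: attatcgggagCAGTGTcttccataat
Tfrc 3′ UTR, chr16:32631664-32631690, plus strand: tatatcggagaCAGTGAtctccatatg
Tfrc 3′ UTR, chr16:32631711-32631737, plus strand: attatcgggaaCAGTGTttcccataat
The elements of both ferritin genes carry the same upper stem, and the 4 Tfrc elements have 5 pairs in the lower stem where the ferritin elements have 4.

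Depth was 15734303 to 18869545 counted reads per library. The 8 milk protein genes on a marker list, all of them detected, took 32.2 to 44.3% of summed FPKM in LPS glands and 38.6 to 49.9% in PBS glands. FPKM is relative to everything else in a library, so this share moves the level of every other gene. LPS replicates 2 and 3 and PBS replicates 2 and 4 carried more B and T cell transcripts than the other glands of their group. The summed FPKM of 14 markers was 9.63 and 32.6 in those LPS glands and 90.6 and 42.1 in those PBS glands, against 1.22 to 1.95 in the other LPS glands and 1.51 to 2.75 in the other PBS glands. In bulk tissue, fewer cells of a type and less RNA per cell cannot be told apart.

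The question was whether transcripts of iron handling changed 12 h after endotoxin. A gene was tested when its FPKM was at least 1 in at least 5 libraries, and called where limma on log2(FPKM + 1) gave it a p below 0.05 after Benjamini-Hochberg adjustment. Of the 10 genes 8 passed that filter, and Slc40a1 and Hamp did not. By limma 0 of the 8 were called higher, where 2.63% of the 11414 tested genes were, and 0 lower, where 0.605% were. At an unadjusted p below 0.05 there were 4 of the 8 (Cp, Ltf and Fth1 with higher means and Trf with a lower mean in LPS glands), and 1879 of all 11414. On whole reads recovered from the FPKM, edgeR called 0 higher (2.67% of all genes) and 1 lower, Trf (1.16% of all genes), and DESeq2 called 1 higher, Ltf (4.78%), and 1 lower, Trf (2.62%). The median log2 change of the 8 was 0.33 and that of all tested genes 0.05.

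**Figure D1:**
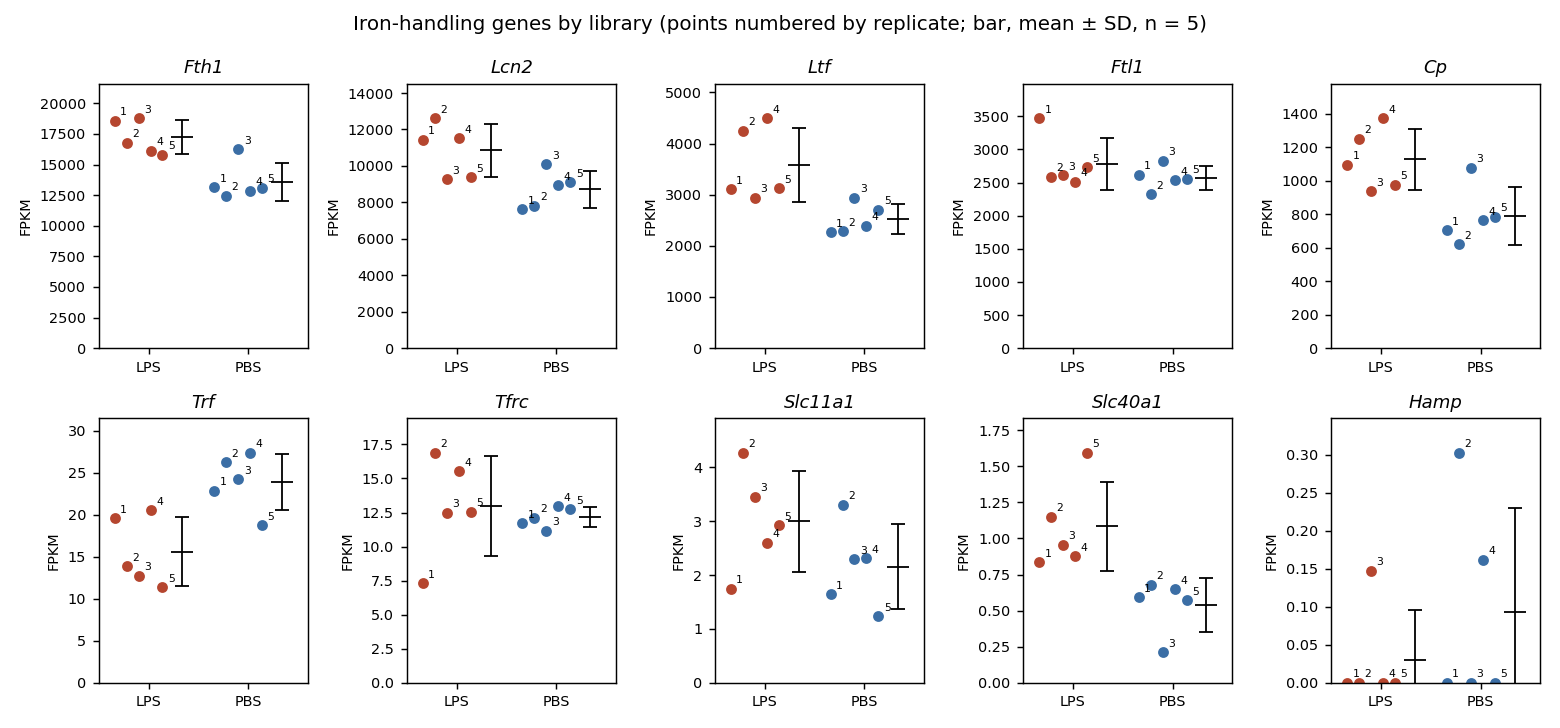
FPKM (linear axis from 0) of the 10 iron-handling genes in each of the 5 LPS and 5 PBS libraries, with points numbered by replicate and bars for the mean ± SD. The groups separate fully only for Slc40a1, with 0.836 to 1.59 FPKM in LPS glands and 0.211 to 0.679 in PBS glands, and PBS replicate 3 is the highest PBS gland for Fth1, Lcn2, Ltf, Ftl1 and Cp.

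The genes spanned the whole range of the table. By mean FPKM over the 10 libraries Fth1 ranked 9th of all genes and Lcn2 11th, Ltf 21st, Ftl1 23rd and Cp 35th. Trf ranked 2410th, Tfrc 3776th, Slc11a1 9248th, Slc40a1 12031st and Hamp 18094th. Fth1 lay above Lcn2 without overlap in either group, while Ltf and Ftl1 overlapped in both groups. Trf and Tfrc overlapped in LPS glands and not in PBS glands. Together the 10 genes made up 4.86 to 5.80% of summed FPKM in LPS glands and 3.88 to 5.15% in PBS glands.

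Transcripts of lipocalin 2 and lactoferrin, whose proteins keep iron from bacteria, were abundant in both groups. Lcn2 (ENSMUSG00000026822, chr2:32384633-32388252, minus strand, protein-coding) was at 11448, 12621, 9279, 11530.5 and 9364 FPKM in LPS replicates 1 to 5, against 7628, 7811, 10098, 8940.3 and 9110.1 FPKM in PBS replicates 1 to 5. LPS replicates 1, 2 and 4 lay above every PBS gland, and the groups overlapped through LPS replicates 3 and 5. The means were 10848 ± 1469 in LPS and 8718 ± 1015 FPKM in PBS glands (SD, n = 5 each), a log2 change of 0.31 ± 0.15 (SE; 95% interval -0.02 to 0.64; limma adjusted p = 0.338).

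Ltf (ENSMUSG00000032496, chr9:111019271-111042767, plus strand, protein-coding) was at 3103, 4250.1, 2938, 4498 and 3128 FPKM in LPS glands, against 2268, 2289, 2943, 2393 and 2710.2 FPKM in PBS glands. LPS replicates 2 and 4 stood highest, as they did for Lcn2, Tfrc and Cp, and LPS replicate 3 lay just under the highest PBS gland. The means were 3583 ± 731 in LPS and 2521 ± 295 FPKM in PBS glands, 1.42-fold apart, with a log2 change of 0.49 ± 0.15 (95% interval 0.16 to 0.82; limma adjusted p = 0.110). DESeq2 called Ltf at an adjusted p of 0.0442, but not when run with no filter (0.0630), and edgeR did not call it (0.213). Over the alternatives the adjusted p ran up to 0.624. The authors' deposited table does not list Ltf.

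Lcn2 and Ltf are also products of neutrophil granules. The summed FPKM of 20 neutrophil markers, leaving out these 2 genes, was 7404 to 14219 in LPS glands and 735.6 to 1893 in PBS glands, with 20 of 20 detected. Of 14 tested markers 6 were called higher by limma and 0 lower, where 2.63% and 0.605% of all tested genes were. All 14 had a log2 change above 0, with a median of 0.92. Nearly all of that sum was S100a8 and S100a9, which epithelia also make, and without them it was 40.4 to 120.4 in LPS glands and 28.5 to 41.0 in PBS glands. Ngp and Camp, granule genes named after their values were seen, were at 2.27 ± 1.33 and 3.59 ± 0.906 FPKM in LPS glands and at 1.72 ± 2.28 and 1.84 ± 0.887 FPKM in PBS glands. The granule genes Mpo, Elane and Prtn3, named in the same way, did not pass the filter and had lower means in LPS glands. They were at 0.0283, 0.0747 and 0.601 FPKM there and at 0.156, 0.449 and 0.846 FPKM in PBS glands. Ly6g, Mmp8 and Trem1, also not tested, had higher means in LPS glands. The part of neutrophils in the Lcn2 and Ltf values was not tested.

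Ceruloplasmin, the copper enzyme that oxidises iron leaving cells, had the largest log2 change of the 8 tested genes in the upward direction. Cp (ENSMUSG00000003617, chr3:19957054-20009145, plus strand, protein-coding) was at 1096, 1252.5, 936.2, 1374.5 and 977.3 FPKM in LPS glands, against 702.9, 622.0, 1077.5, 764.8 and 785.5 FPKM in PBS glands. A single PBS gland, replicate 3, lay inside the LPS range. The means were 1127 ± 185 in LPS and 791 ± 173 FPKM in PBS glands, with a log2 change of 0.52 ± 0.16 (95% interval 0.18 to 0.86; limma adjusted p = 0.0964). Without PBS replicate 3 Cp was called (log2 change 0.64, limma adjusted p = 0.0312), and over all alternatives the adjusted p reached 0.575. Cp overlaps Hps3 on the opposite strand, which was at 3.88 to 7.50 FPKM.

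Promoter pieces of these genes and of Hamp are shown because they hold matches to the motifs of factors that act in inflammation, C/EBP (TTGCNNAA) and STAT (TTCNNNGAA), each searched on both strands. RefSeq promoters (build GRCm38.p6, windows around the start) matched 8 of the 10 genes by symbol, and Trf and Slc40a1 were not matched. RefSeq starts can differ from the ends of the gene spans printed here, and the Lcn2 and Cp pieces lie inside those spans. TTGCNNAA was found for Lcn2, Ltf, Cp and Fth1, and in 10.8% of 32851 promoters. TTCNNNGAA was found for Hamp alone among the 8, and in 8.30% of all promoters. The pieces of 60 bases run 5′ to 3′ along the gene's strand with the motif in capitals.
Lcn2, chr2:32387922-32387981, minus strand: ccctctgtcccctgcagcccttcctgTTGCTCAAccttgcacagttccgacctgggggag
Ltf, chr9:111019191-111019250, plus strand: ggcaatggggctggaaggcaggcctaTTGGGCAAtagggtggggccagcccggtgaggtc
Cp, chr3:19957153-19957212, plus strand: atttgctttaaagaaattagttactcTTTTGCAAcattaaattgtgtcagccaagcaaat
Hamp, chr7:30944093-30944152, minus strand: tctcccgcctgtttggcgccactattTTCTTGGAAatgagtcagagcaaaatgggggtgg
In Ltf and Cp the match is on the strand opposite to the gene, and TTCNNNGAA is its own reverse complement. A looser NF-kB pattern (GGG, 5 free bases, then CC) was in promoters of Lcn2, Ltf, Cp, Ftl1, Tfrc and Fth1 and in 50.8% of all promoters. These matches are descriptions of the letters and no evidence of binding.

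Ferritin stores iron in a shell of heavy chains, which oxidise it, and light chains, which help it mineralise. Fth1, the heavy chain gene (ENSMUSG00000024661, chr19:9980598-9985098, plus strand, protein-coding), was at 18578.5, 16777, 18789, 16126 and 15793 FPKM in LPS glands, against 13149, 12442, 16263, 12872 and 13101 FPKM in PBS glands. PBS replicate 3 stood inside the LPS range, and the other 4 PBS glands lay below every LPS gland. The means were 17213 ± 1391 in LPS and 13565 ± 1534 FPKM in PBS glands, with a log2 change of 0.35 ± 0.15 (95% interval 0.02 to 0.67; limma adjusted p = 0.265).

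Ftl1, the light chain gene (ENSMUSG00000050708, chr7:45457944-45459884, minus strand, protein-coding), was at 3473, 2592, 2612, 2513 and 2728 FPKM in LPS glands, against 2616, 2323, 2831, 2537 and 2559 FPKM in PBS glands. Only LPS replicate 1 lay above the PBS range. The log2 change was 0.11 ± 0.12 (95% interval -0.16 to 0.37; limma adjusted p = 0.750). Ferritin genes have near-identical copies that could share reads, of which Ftl1-ps1 was at 10.9 to 19.95 FPKM and the others found by symbol at no more than 1.07 FPKM, so the ferritin values are uncertain to that extent.

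**Figure D2:**
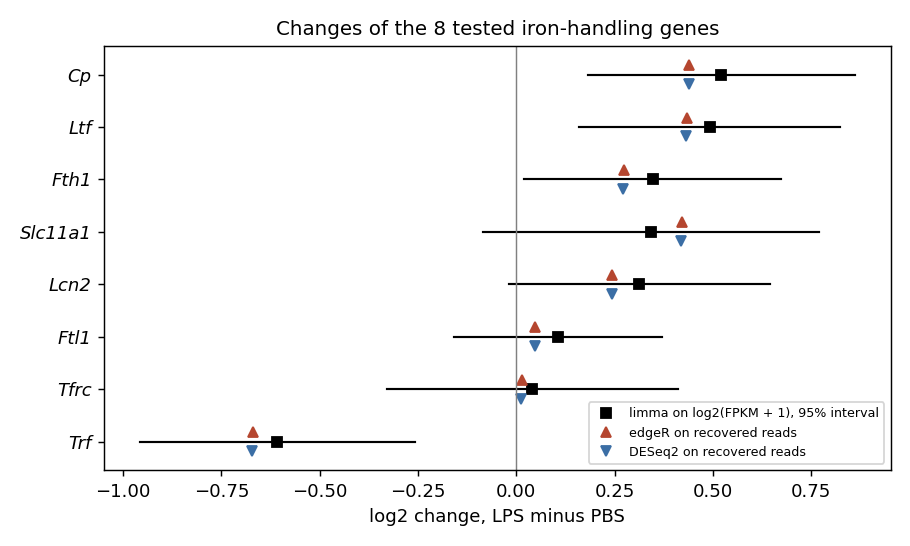
Log2 change, LPS minus PBS, of the 8 tested genes, with limma estimates and 95% intervals (squares and lines) and the estimates of edgeR and DESeq2 on recovered reads (triangles). Cp, Ltf and Fth1 have intervals above 0, from 0.18, 0.16 and 0.02 upward, and Trf has one below 0, from -0.96 to -0.26, but none passed the adjustment over all genes in limma.

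Trf, the gene of the plasma iron carrier transferrin, went in the other direction from Ltf. Trf (ENSMUSG00000032554, chr9:103204001-103230444, minus strand, protein-coding) was at 19.6, 13.9, 12.7, 20.5 and 11.4 FPKM in LPS glands, against 22.9, 26.3, 24.3, 27.4 and 18.8 FPKM in PBS glands. LPS replicates 2, 3 and 5 lay below every PBS gland, and LPS replicates 1 and 4 overlapped PBS replicate 5. These values rest on 496 to 952 reads per library in LPS glands and 774 to 1141 in PBS glands. The means were 15.6 ± 4.17 in LPS and 23.9 ± 3.36 FPKM in PBS glands, with a log2 change of -0.61 ± 0.16 (95% interval -0.96 to -0.26; limma adjusted p = 0.0636).

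Trf was called lower by edgeR (log2 change -0.67, adjusted p = 0.0355) and by DESeq2 (-0.67, adjusted p = 0.00323), and the authors' deposited table lists it with a log2 fold change of -0.58 and an adjusted p of 0.00531. In limma it was called without LPS replicate 1 (-0.69, adjusted p = 0.0345) or LPS replicate 4 (-0.71, adjusted p = 0.0319). Limma also called it when only genes with a mean FPKM of at least 5 were tested (adjusted p = 0.0486), and with median-of-ratios scaling (0.0367) or quantile normalization (0.0324). Over all alternatives the adjusted p lay between 0.00323 and 0.665. Without the 4 libraries richest in B and T cell markers, which leaves 3 glands a group, the log2 change was -0.37 (limma adjusted p = 0.665). The liver is the main source of transferrin, and albumin (Alb), a defining liver gene named after its values were seen, was at 0.385 ± 0.295 FPKM in LPS and 0.215 ± 0.101 FPKM in PBS glands. The 9 liver markers summed to 4.79 to 13.3 FPKM in LPS and 6.24 to 26.8 FPKM in PBS glands, mostly Cyp2e1, which fat also expresses. Cyp2e1, the 1 liver marker tested and also named after its values were seen, was at 7.92 ± 3.37 in LPS and 19.2 ± 8.42 FPKM in PBS glands. Its log2 change was -1.11 (limma adjusted p = 0.130), and DESeq2 called it lower (adjusted p = 0.0372). Which cells the Trf transcripts came from was not tested.

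Within a library the ratio of 2 genes does not depend on how libraries are scaled. The 3 ratios tested were chosen with earlier results of these data known, and their p-values do not allow for that choice. How many other gene pairs separate the groups was not counted. The FPKM ratio of Ltf to Trf was 158.1, 305.4, 230.5, 219.0 and 274.9 in LPS glands, against 99.2, 87.0, 121.2, 87.4 and 144.1 in PBS glands. Every LPS gland lay above every PBS gland. The log2 ratio was higher by 1.13 in LPS glands, or 2.19-fold (exact permutation of the group labels, two-sided, p = 0.00794, the smallest they can give; adjusted p = 0.0119 over 3 ratios). Without the 4 libraries richest in B and T cell markers the difference was 0.82, and 3 against 3 glands cannot reach 0.05.

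The ratio of Fth1 to Ftl1 was 5.35, 6.47, 7.19, 6.42 and 5.79 in LPS glands, against 5.03, 5.36, 5.75, 5.07 and 5.12 in PBS glands. LPS replicate 1 overlapped the PBS glands, and the other 4 LPS glands lay above all of them. The log2 ratio was higher by 0.24 in LPS glands (1.18-fold; exact permutation p = 0.0238, adjusted p = 0.0238). Without PBS replicate 1 or without PBS replicate 4 the adjusted p was 0.0556. Without the 4 libraries richest in B and T cell markers the difference was 0.14.

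**Figure D3:**
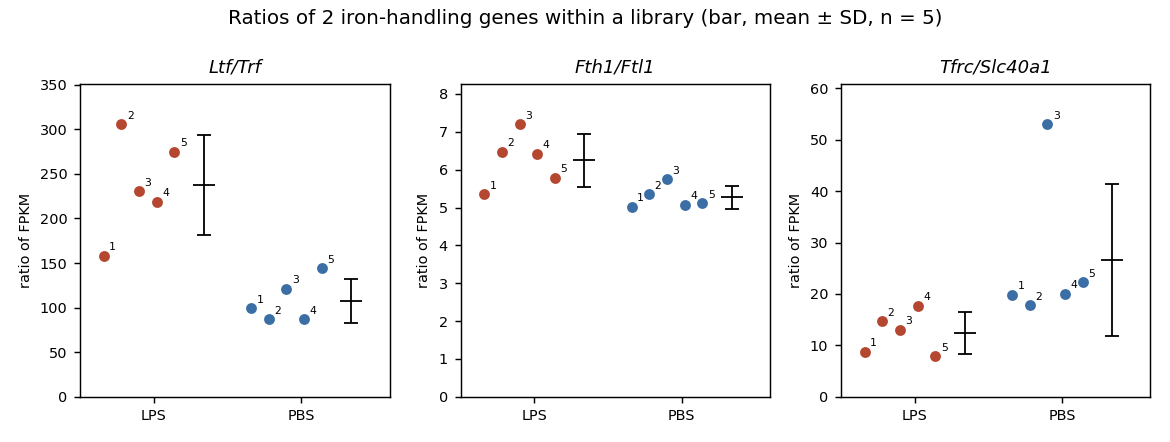
Ratio of FPKM of 2 genes within each library for Ltf/Trf, Fth1/Ftl1 and Tfrc/Slc40a1 (linear axes from 0; points numbered by replicate; bars, mean ± SD, n = 5). Ltf/Trf is 158.1 to 305.4 in LPS glands and 87.0 to 144.1 in PBS glands, while for Tfrc/Slc40a1 the highest LPS gland, at 17.7, lies just under the lowest PBS gland, at 17.9.

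Tfrc, the transferrin receptor through which cells take up iron (ENSMUSG00000022797, chr16:32608920-32632794, plus strand, protein-coding), was at 7.33, 16.9, 12.5, 15.5 and 12.5 FPKM in LPS glands, against 11.7, 12.1, 11.2, 13.0 and 12.8 FPKM in PBS glands. The LPS glands surrounded the narrow PBS range, with replicate 1 below it and replicates 2 and 4 above it. The log2 change was 0.04 ± 0.17 (95% interval -0.33 to 0.41; limma adjusted p = 0.947), and its sign turned with scaling. The interval allows a level between 0.797 and 1.33 times that of PBS glands.

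Slc40a1 encodes ferroportin, the iron exporter of cells (ENSMUSG00000025993, chr1:45908068-45926523, minus strand, protein-coding). It was at 0.836, 1.151, 0.957, 0.877 and 1.59 FPKM in LPS glands, against 0.591, 0.679, 0.211, 0.647 and 0.573 FPKM in PBS glands. Every LPS gland lay above every PBS gland, which held for 3.53% of all tested genes. These levels came from 55 to 106 reads per library in LPS glands and 14 to 45 reads in PBS glands. The means were 1.08 ± 0.309 in LPS and 0.540 ± 0.189 FPKM in PBS glands, 2.004-fold apart.

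Since the FPKM filter left Slc40a1 out, it was tested on reads with other filters. DESeq2 with no filter called it (log2 change 0.96 ± 0.31, adjusted p = 0.0418), with 2.62% of 23059 genes called higher. With its own filter edgeR did not (0.95, adjusted p = 0.122; 2.41% of 13791 genes called higher), nor did limma with no filter (adjusted p = 0.179). The authors' deposited table lists it with a log2 fold change of 0.67 and an adjusted p of 0.0361. The Tfrc to Slc40a1 ratio was 8.76, 14.7, 13.1, 17.7 and 7.88 in LPS glands, against 19.8, 17.9, 53.0, 20.04 and 22.3 in PBS glands. Its log2 value was lower by 1.03 in LPS glands (exact permutation p = 0.00794, adjusted p = 0.0119), with groups that only just did not overlap. With 1 added to both FPKM the log2 difference was -0.39 (adjusted p = 0.0952), and without PBS replicate 3 it was -0.75. As Tfrc had a log2 change of 0.04, this ratio mostly repeats the Slc40a1 difference and is no separate support for it.

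Slc11a1 encodes NRAMP1, which pumps metal ions out of the phagosome of macrophages and neutrophils (ENSMUSG00000026177, chr1:74375195-74386062, plus strand, protein-coding). It was at 1.75, 4.27, 3.46, 2.60 and 2.92 FPKM in LPS glands, against 1.64, 3.30, 2.30, 2.31 and 1.24 FPKM in PBS glands. The groups overlapped over most of their range, and replicate 2 was the highest in both. The log2 change was 0.34 ± 0.20 (95% interval -0.09 to 0.77; limma adjusted p = 0.431). Of 15 macrophage and monocyte markers, all detected, 10 were tested and 0 called by limma, and the summed FPKM was 87.2 to 190.4 in LPS glands and 110.6 to 401.4 in PBS glands, highest in PBS replicate 2. The median log2 change of the 10 was -0.43, and 2 of them had a change above 0. By edgeR 1 was lower, Cx3cr1 (adjusted p = 0.0497), where 1.16% of all genes were. By DESeq2 2 were lower, Cx3cr1 (adjusted p = 0.00392) and Csf1r (adjusted p = 0.0351), where 2.62% of all genes were. The neutrophil sum without S100a8 and S100a9 was highest in LPS replicate 2. The part of either cell type in the Slc11a1 values was not tested. These values are of the transcript, and whether NRAMP1 is active in the BALB/c strain was not examined.

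Hamp, the hepcidin gene (ENSMUSG00000050440, chr7:30942368-30944032, minus strand, protein-coding), had 1 read in the 5 LPS libraries together and 3 in the 5 PBS libraries. LPS replicate 3 was listed at 0.147 FPKM, PBS replicate 2 at 0.302 and PBS replicate 4 at 0.162, with 0 elsewhere. A difference was not detectable at this depth. Its copy Hamp2 reached 0.145 FPKM at most.

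PBS replicate 3 was the highest PBS gland for 5 of the 10 genes, Fth1, Lcn2, Ltf, Ftl1 and Cp, and the lowest for Slc40a1 and Tfrc. It also had the smallest milk protein share of the PBS glands, 38.6% against 40.4 to 49.9%. When FPKM was rescaled to the sum outside the milk proteins, the log2 changes were 0.30 for Cp, 0.27 for Ltf, 0.20 for Slc11a1, 0.13 for Fth1, 0.10 for Lcn2, -0.11 for Ftl1, -0.16 for Tfrc and -0.81 for Trf. That scaling put the median of all tested genes at -0.13 in place of 0.05, and each change is to be read against that median. Trf was called lower under it (limma adjusted p = 0.0113) and no other of the 8.

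For each tested gene, the 3 protein-coding genes of nearest profile were found by the root mean square distance of standardised log2(FPKM + 1) over the 10 libraries, among all tested genes. Nearest to Lcn2 were the serine protease gene Tmprss2 (distance 0.338), the metallothionein gene Mt2 (0.340) and Cp itself (0.352). Ltf lay nearest to AI464131 (0.267), Cox15 (0.303) and clusterin, Clu (0.321), and Clu (0.318) was also among the nearest to Cp, after Lamp1 (0.293) and Sdr42e1 (0.299). The fractalkine receptor gene Cx3cr1 (0.272), the chemokine gene Cxcl17 (0.276) and Dnase2a (0.277) lay nearest to Trf. The list for Fth1 was Vnn3 (0.304), Ociad1 (0.325) and the acute phase gene Saa3 (0.344). The nearest genes of Ftl1 and Tfrc were farther, at 0.428 for Lgmn and 0.494 for Fndc3b, and that of Slc11a1 was Ptpre at 0.250. Distances picked as the smallest of 11414 genes describe these libraries only.

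The rest of iron and heme handling was described by 6 further lists with 91 genes, of which 75 were tested. In these lists 2 genes were called higher (2.63% of all tested genes were) and 1 lower (0.605%). The limma counts given below for single lists are to be read against the same shares. An unadjusted p below 0.05 was found for 11 of the 75, and for 1879 of all 11414 tested genes. The median log2 change was 0.07, against 0.05 for all tested genes.

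Hpx encodes hemopexin, the plasma protein that binds free heme, and had the largest log2 change of the 3 genes called by limma. It was at 25.4, 38.8, 38.4, 18.6 and 13.7 FPKM in LPS glands, against 5.16, 5.13, 10.96, 4.56 and 7.91 FPKM in PBS glands. The groups did not overlap, and 3.53% of all tested genes were higher in LPS glands in that way. The log2 change was 1.81 ± 0.29, a 4.00-fold difference of the means (limma adjusted p = 0.00777; edgeR 0.00477; DESeq2 8.74e-09). Without the 4 libraries richest in B and T cell markers, 3 glands a group, the log2 change was 1.18 (limma adjusted p = 0.154). Of its list of heme uptake, export and breakdown 1 of 13 tested genes was higher and 0 lower, with a median log2 change of 0.07. Haptoglobin (Hp), which binds free hemoglobin, was at 521 ± 145 in LPS and 544 ± 132 FPKM in PBS glands, and heme oxygenase 1 (Hmox1), which breaks heme down, at 26.4 ± 7.69 in LPS and 26.5 ± 4.69 FPKM in PBS glands; both were named after their values were seen.

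Fbxl5 encodes the iron-sensing part of the ubiquitin ligase that degrades iron regulatory protein 2. It rose to 9.81 ± 2.15 FPKM in LPS glands, against 5.93 ± 1.12 in PBS glands (log2 change 0.63 ± 0.15, limma adjusted p = 0.0438), with 4 of 5 LPS glands above every PBS gland. It was also called by edgeR (adjusted p = 0.0268) and DESeq2 (adjusted p = 0.00158), and the authors' deposited table lists it (0.60, adjusted p = 0.00123). Of its list of oxidation, storage turnover and regulatory protein genes 1 of 7 tested was higher and 0 lower. The iron regulatory protein genes themselves, Aco1 and Ireb2, were at 29.0 ± 4.63 and 26.9 ± 3.08 FPKM in LPS glands and at 27.3 ± 2.61 and 25.97 ± 2.27 FPKM in PBS glands (limma adjusted p = 0.830 and 0.881; named after their values were seen). The limma call of Fbxl5 ended without any of 7 libraries, LPS replicate 2, 3 or 5 or PBS replicate 1, 3, 4 or 5 (highest limma adjusted p = 0.126), and with scaling outside the milk proteins (0.44, limma adjusted p = 0.106). It also ended with no filter (limma adjusted p = 0.112) and without the 4 libraries richest in B and T cell markers (0.51, limma adjusted p = 0.306).

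Among 12 tested genes of hepcidin control 0 were higher and 1 lower. Il6ra encodes the receptor chain for interleukin-6, a cytokine that induces hepcidin in the liver. Il6ra was at 9.62, 10.5, 9.51, 9.71 and 9.79 FPKM in LPS glands, against 15.5, 15.2, 12.0, 10.95 and 14.3 FPKM in PBS glands. The groups did not overlap, and 1.22% of all tested genes were lower in LPS glands in that way. Limma called it lower (log2 change -0.42 ± 0.10, limma adjusted p = 0.0438), as did edgeR (adjusted p = 0.0238) and DESeq2 (adjusted p = 0.00158). The authors' deposited table lists it with a log2 fold change of -0.49 and an adjusted p of 0.00393. The limma call ended without any library but PBS replicates 3 and 4 (highest limma adjusted p = 0.119), with no filter (0.0849), and without the 4 libraries richest in B and T cell markers (log2 change -0.47, limma adjusted p = 0.230). Il6 itself, named like Stat3 after its values were seen, did not pass the filter, at 2.78 ± 1.87 FPKM in LPS and 0.134 ± 0.0875 FPKM in PBS glands. The authors' deposited table lists Il6 with a log2 fold change of 1.42 and an adjusted p of 2.83e-07. That change is smaller than the ratio of these means gives, as the authors' changes also were for Hpx and Slc40a1. Stat3, which carries the signal, was at 103 ± 10.04 in LPS and 97.6 ± 9.89 FPKM in PBS glands.

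The other 3 lists had no calls by limma: 0 of 13 genes of iron uptake, reduction and transport, 0 of 10 of heme synthesis and 0 of 20 of iron-sulfur cluster assembly. Slc39a8, a zinc, manganese and iron importer, had the highest level of the first list, 353.6 ± 60.6 in LPS and 308 ± 20.3 FPKM in PBS glands. Pcbp1, an iron chaperone, followed with 120.7 ± 12.4 in LPS and 118.9 ± 7 FPKM in PBS glands. The highest of heme synthesis were Tmem14c, at 71.1 in LPS and 57.5 FPKM in PBS glands, and Alad, at 32.3 in LPS and 30.2 FPKM in PBS glands. Those of cluster assembly were the chaperone gene Hspa9, at 81.9 in LPS and 86.5 FPKM in PBS glands, and the glutaredoxin gene Glrx5, at 38.4 in LPS and 30.8 FPKM in PBS glands. The limma adjusted p of these 6 genes lay between 0.262 and 0.955. DESeq2 called 2 more genes of the 6 lists, both higher (4.78% of all tested genes were) and both named after their values were seen. They were Steap4, a metalloreductase, at 111.6 ± 18.5 in LPS and 83.7 ± 8.33 FPKM in PBS glands (DESeq2 adjusted p = 0.0190), and Alas1, the first enzyme of heme synthesis, at 18.2 ± 4.65 in LPS and 12.4 ± 2.32 FPKM in PBS glands (DESeq2 adjusted p = 0.0247).

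**Figure D4:**
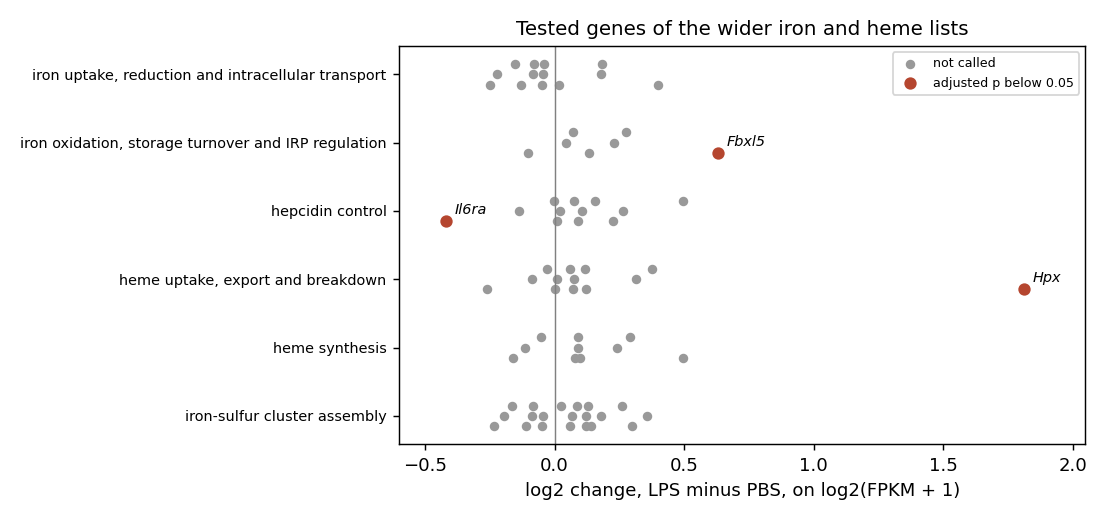
Log2 change, LPS minus PBS on log2(FPKM + 1), of each tested gene in 6 lists of iron and heme handling (grey, not called; red, limma adjusted p below 0.05). Hpx at 1.81 and Fbxl5 at 0.63 are the called rises and Il6ra at -0.42 the called fall, and most other points lie close to 0.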

How the data were processed

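RNA of 5 LPS and 5 PBS mammary glands was sequenced. The submitters' processing notes name build mm10 and, with no role, DESeq2 (as version 2), HTSeq 0.6.1 and STAR 2.5; settings, strandedness and annotation release are not given in the sources used here. The authors deposited FPKM for 35275 genes and a table of 908 genes with their adjusted p-value below 0.05. Per the file headers that table holds raw counts, FPKM, p-values and log2 fold changes of the authors, and a signal, the count divided by 1 size factor per library. Some of the authors' log2 fold changes were smaller than those found here, for example 1.59 against 4.63 by limma for S100a9, and 1.40 against 1.90 by DESeq2 for Hpx. For Il6ra the authors' change was the larger in size, -0.49 against -0.42 by limma. How the authors' changes were estimated is not given in the sources used here, so the sizes are not to be set side by side.

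For the 908 genes count, length and FPKM gave 1 depth per library. Whole reads (within 0.002 reads) were recovered from it for all 23059 genes above 0, and made up at least 99.98% of each depth. A 1 kb gene with 1 read had 0.0530 to 0.0636 FPKM. This depth limits counting error only, since PCR copies cannot be told apart.

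Gene symbols were matched for 34490 IDs in a reference name table and for 3 more in the authors' table. Genes were tested with limma 3.58.1 (R 4.3.3, intensity trend, two-sided) on log2(FPKM + 1), with group as the only term; this scale understates changes of low genes. edgeR 4.0.16 (quasi-likelihood) and DESeq2 1.42.0 ran on recovered reads. Count tests without the FPKM filter were added after values were seen. The fits were tested on simulated data. Ratios were compared by exact permutation. The 10 genes, the lists and the tests were chosen with earlier results of these data known. Named in the wider lists are called genes of largest change (at most 6), or otherwise the 2 of highest mean FPKM; exceptions are marked, and marker lists are given as sums. The alternatives were other pseudocounts, filters, scalings and count tests, a replicate block, a covariate for B and T cell markers, and leaving out libraries.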

Additional observations from a re-analysis of the deposited data

Results flagged for a closer look

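In 6 of 44 groups of 5 glands a gland stood apart from the other 4, its gap to the nearest, as a share of the group's range, being above Dixon's 95% critical value. For independent groups of normal values chance gives about 1 in 20, but these groups share glands and are not independent. PBS replicate 3 accounts for 3 of the 6, and its Tfrc to Slc40a1 ratio rests on the same Slc40a1 value. In PBS glands Fth1 was at 16263 FPKM there and at 12442 to 13149 in the other 4, Slc40a1 was at 0.211 FPKM against 0.573 to 0.679, and the Tfrc to Slc40a1 ratio was 53.0 against 17.9 to 22.3. In LPS glands Ftl1 was at 3473 FPKM in replicate 1 and at 2513 to 2728 in the others. Hamp was at 0.147 FPKM, a single read, in LPS replicate 3 and at 0 in the other LPS glands, and a lone value above 0 always meets this rule. Slc39a8 was at 343.9 FPKM in PBS replicate 4 and at 296.2 to 303 in the other PBS glands.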

How the results depend on the processing

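By limma 0 of the 10 iron genes were called in either direction, and the count higher was 1 with DESeq2, with or without the FPKM filter (Ltf with the FPKM filter, Slc40a1 without a filter), and 0 to 1 when single libraries were left out (Cp without PBS replicate 3). The count lower was 1, Trf, with a mean FPKM of at least 5, median-of-ratios scaling, quantile normalization, scaling outside milk proteins, both edgeR runs and both DESeq2 runs, and 0 to 1 when single libraries were left out. In the wider lists 2 genes were higher. That number was 1 with no filter or with scaling outside milk proteins, 4 with DESeq2, 5 with DESeq2 without a filter, 0 without the 4 libraries richest in B and T cell markers, and 1 to 3 when single libraries were left out. The 1 gene lower became 0 with no filter and without those 4 libraries, 4 with scaling outside milk proteins, and 0 to 1 when single libraries were left out. The calls over all genes moved too: 300 were higher and 69 lower in limma, against 101 and 25 with no filter, 128 and 348 with scaling outside milk proteins, and 8 and 0 without the 4 libraries. The cause of these shifts was not tested, except that fewer glands were left in some.

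The labels do not say whether equal replicate numbers mark glands of 1 animal, and the data leave it unsettled: deviations of equally numbered glands from the group means correlated at 0.482, 0.362, 0.0993, 0.103 and 0.494 over 11414 genes, and 2 of 5 pairs were each other's best match. With the replicate number as a block 1 iron gene was lower, Trf (adjusted p = 0.00916), 7 genes of the wider lists were higher, and of all genes 962 were higher and 267 lower, against 300 and 69. Sign flips within pairs left the ratios at 1.13 for Ltf over Trf, 0.24 for Fth1 over Ftl1 and -1.03 for Tfrc over Slc40a1, each with an adjusted p of 0.0625, the smallest that 5 pairs can give.

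The Ltf over Trf difference was 1.03 to 1.27 without single libraries and 0.82 without the 4 libraries richest in B and T cell markers, that of Fth1 over Ftl1 0.19 to 0.29 and 0.14, and that of Tfrc over Slc40a1 -1.18 to -0.75 and -1.42; with 1 added to both FPKM the last was -0.39.

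Signs turned for 5 genes, none of them called. Tfrc was at -0.0227 with median-of-ratios scaling, -0.0274 with quantile normalization, -0.16 with scaling outside milk proteins, -0.0634 without the 4 libraries and -0.0598 to 0.22 without single ones. Ftl1 was at -0.34 with quantile normalization and -0.11 with scaling outside milk proteins. Slc39a8 was at -0.0316 with scaling outside milk proteins, and Alad at -0.0313 with quantile normalization and -0.12 with that scaling. Pcbp1 was at -0.0493 with median-of-ratios scaling, -0.0455 with edgeR, -0.0477 with DESeq2, -0.12 with quantile normalization, -0.20 with scaling outside milk proteins, -0.0329 without the 4 libraries, -0.0351 to 0.0657 without single ones, -0.0395 with edgeR's own filter and -0.0380 with DESeq2 without a filter. Depth limits Slc40a1 and Hamp most.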
